A study of Homo sapiens with 8 samples.

Results

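Aminoacyl-tRNA synthetases are the enzymes that join each amino acid to its transfer RNA, the step that supplies charged tRNA to the ribosome. The genes were taken by symbol: EPRS, or the letter of an amino acid followed by ARS, with or without a final 1, 2, A or B, limited to protein-coding genes and to the transcript with the highest mean level. This gave 37 of the 27945 genes in the table. Of these, 20 encode cytosolic enzymes and 17, whose symbols end in 2, encode mitochondrial ones. All 37 were expressed high enough to be tested.

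The RNA came from EA.hy926, an immortalized line made by fusing umbilical vein endothelial cells with cells of the lung carcinoma line A549. Libraries of total RNA, with ribosomal RNA removed, were made from 3 clones lacking the enhancer E2 (ΔE2), 3 clones lacking the neighbouring region SE12313-b (ΔSE12313-b) and control EA.hy926 cells (2 libraries), all grown in high-glucose DMEM with serum. E2 and SE12313-b are parts of 1 super-enhancer on chromosome arm 16q and were removed with CRISPR/Cas9. The clones are clonal lines and the control is not described as one, so that cloning and deletion cannot be told apart. The labels do not state that the control libraries are separate cultures. They number the libraries of each group as replicates. A clone number below is this replicate number and not a clone name of the paper. The p values rest on a spread pooled over the 3 groups, so that they may hold no spread between cultures of the control. The deleted DNA is non-coding, so that no synthetase transcript checks the genotype.

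Cytosolic synthetases serve translation of nuclear messages, and 8 of them form a complex with 3 scaffold proteins. The mitochondrial enzymes are encoded in the nucleus, imported, and charge the tRNAs that the mitochondrial genome encodes. Most amino acids have separate genes for both compartments, whereas GARS and KARS each make both enzymes from 1 gene, and mitochondrial glutaminyl-tRNA is made by a transamidation route. When amino acids run short, the kinase GCN2 and the transcription factor ATF4 drive the integrated stress response, and many cytosolic synthetase genes are known targets of ATF4. ATF4 binds a C/EBP-ATF response element together with C/EBP partners.

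The letters of this element (TGATGNAA, or TTNCATCA on the other strand) were searched in 300 bases of GRCh37 at the start of each kept transcript, from 250 bases before the start. They were found in 2.2% of all 13784 promoters read, in 3 of 20 cytosolic synthetases (AARS, CARS, GARS) and in 2 of 17 mitochondrial ones (FARS2, YARS2). The bases before the start are printed for the members that hold a match, because they are on both sides of the changes described below, and for CARS, whose match lies 26 bases after the start base, 30 bases around it. Capitals mark the match, and the letters run 5′ to 3′ along the strand of the gene.
AARS, chr16:70323413-70323662, minus strand: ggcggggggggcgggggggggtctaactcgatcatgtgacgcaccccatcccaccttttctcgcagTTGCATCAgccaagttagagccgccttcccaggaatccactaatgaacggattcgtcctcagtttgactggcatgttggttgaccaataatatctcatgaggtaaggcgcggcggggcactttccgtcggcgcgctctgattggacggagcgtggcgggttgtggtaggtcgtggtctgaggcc
CARS, chr11:3078637-3078666, minus strand: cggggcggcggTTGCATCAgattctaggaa
GARS, chr7:30634259-30634508, plus strand: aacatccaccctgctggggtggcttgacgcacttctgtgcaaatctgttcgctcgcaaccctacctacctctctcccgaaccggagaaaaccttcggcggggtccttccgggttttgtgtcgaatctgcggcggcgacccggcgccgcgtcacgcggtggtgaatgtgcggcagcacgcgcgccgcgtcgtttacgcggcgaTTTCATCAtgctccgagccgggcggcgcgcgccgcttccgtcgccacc
FARS2, chr6:5261309-5261558, plus strand: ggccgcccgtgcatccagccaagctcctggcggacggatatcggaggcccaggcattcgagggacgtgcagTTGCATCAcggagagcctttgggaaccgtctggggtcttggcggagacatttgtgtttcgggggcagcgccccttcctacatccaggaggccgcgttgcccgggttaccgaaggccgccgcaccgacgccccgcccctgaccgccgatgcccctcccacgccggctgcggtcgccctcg
YARS2, chr12:32908888-32909137, minus strand: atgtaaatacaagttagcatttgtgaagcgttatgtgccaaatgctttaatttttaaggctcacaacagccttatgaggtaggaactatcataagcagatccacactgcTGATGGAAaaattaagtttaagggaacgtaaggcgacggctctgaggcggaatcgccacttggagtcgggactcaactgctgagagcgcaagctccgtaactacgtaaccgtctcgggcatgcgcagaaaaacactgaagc

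The same 8 letters, TTGCATCA, thus stand in the windows of AARS and CARS, which fell in both deletions, and of FARS2, which rose in both. The match lies 184 bases before the start base in AARS, 48 in GARS, 179 in FARS2 and 141 in YARS2. Letters that the factor NRF1 binds (GCGCATGC, either strand) were found in 4.98% of all promoters, in 0 of 20 cytosolic and in 3 of 17 mitochondrial synthetases (MARS2, VARS2, YARS2). An ETS motif (CCGGAAG, either strand) was in 16.0% of all promoters, in 8 of 20 cytosolic and in 6 of 17 mitochondrial synthetases. The E-box (CACGTG) was in 9.45% of all promoters, in 3 cytosolic synthetases and in 2 mitochondrial ones. These matches describe the letters in the window and do not show binding.

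The unit of the table is FPKM, the reads per kilobase of transcript after scaling for library size. Multiplied by transcript length, the values gave whole reads, from which the libraries held 12067548 to 12696160 reads in the control, 13616460 to 19101150 in ΔE2 and 14814192 to 16085481 in ΔSE12313-b. Each cytosolic synthetase had 442 to 5257 reads per library and each mitochondrial one 52 to 3272, so that mitochondrial members with few reads carry more counting noise. In the control, mean FPKM of the cytosolic members ran from 14.7 (FARSB) to 124 (AARS) with a median of 47.5, and that of the mitochondrial members from 2.02 (MARS2) to 36.8 (IARS2) with a median of 6.68. The summed level of 12 endothelial markers was 461 to 463 FPKM in the control, 508 to 727 in ΔE2 and 511 to 717 in ΔSE12313-b, with KDR at most 0.292 and CLDN5 listed at 0 throughout. Of 10 tested, PECAM1, TEK, ERG and ESAM rose and VWF fell in ΔE2, where 22.5% of all genes tested rose and 14.1% fell. In ΔSE12313-b, EGFL7, ERG and PECAM1 rose and VWF fell, against 29.9% and 12.2% of all genes. EMCN also counted as lower in ΔE2 (at most 0.16 FPKM, control 0.333 and 0.371). It reached the minimum level for testing, 0.5 FPKM in 2 libraries, only through ΔSE12313-b (0.671 to 1.58), so that no fall is read from it. Of 6 smooth muscle or fibroblast markers only ACTA2 was high enough to be tested, and it fell by 2.80 and 2.52 on the log2 scale. MYH11, DES, PDGFRB, COL1A1 and COL3A1 were at most 0.336 FPKM in any library. Of the leukocyte markers, CD3E was listed at 0 in every library and PTPRC in all but 1, at 0.012, whereas CD68, a macrophage marker, was at 24.3 to 40.4 FPKM in every library, 0.61 lower in ΔE2 than in ΔSE12313-b on the log2 scale. The summed level of the 6 epithelial markers was 361 to 363 in the control and 811 to 1210.1 in the clones, through KRT7, KRT8 and KRT18, with CDH1 at 0 and EPCAM at most 0.554. These markers moved with the groups, and their part in the results below was not tested. In bulk RNA, fewer cells of a type and less RNA per cell cannot be told apart.

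Both classes of synthetase were set against the control within each deletion. The sum over the 20 cytosolic members was 1059.1 and 1058.6 FPKM in the control, 857 to 920.3 in ΔE2 and 843 to 921 in ΔSE12313-b. The sum over the 17 mitochondrial members was 143 and 147 in the control, 200.1 to 216 in ΔE2 and 216 to 231 in ΔSE12313-b. The clones of either deletion thus lay below both controls in the first sum and above both in the second. These sums are not centred, and the kept transcripts held a larger share of the library reads in the clones. They held 8150574 of 12696160 reads in control 1, 13371511 of 19101150 in ΔE2 clone 1 and 12586531 of 16085481 in ΔSE12313-b clone 1. The part of this difference in each sum was not tested. The ratio of both sums was 7.43 and 7.20 in the control, 4.17 to 4.45 in ΔE2 and 3.82 to 3.99 in ΔSE12313-b, with no overlap between the 3 groups.

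The members did not move as 1 block. A gene was called where limma on log2(FPKM + 0.1) gave an adjusted p under 0.05 (Benjamini-Hochberg over 13789 genes) and the change was at least 1.5-fold. In ΔE2, 6 of the 20 cytosolic members fell (AARS, CARS, LARS, MARS, SARS, WARS) and 2 rose (FARSB, HARS), where 14.1% of all genes tested fell and 22.5% rose. In ΔSE12313-b, 5 fell (AARS, CARS, LARS, MARS, SARS) and 3 rose (FARSA, FARSB, HARS), against 12.2% and 29.9% of all genes. Of the 17 mitochondrial members, 1 fell (PARS2) and 7 rose in ΔE2 (among them CARS2, FARS2, LARS2, SARS2, WARS2 and YARS2), and 0 fell and 9 rose in ΔSE12313-b, these 7 with IARS2 and VARS2. Of these members, 5 cytosolic ones fell in both deletions, 2 cytosolic ones rose in both and 7 mitochondrial ones rose in both. As both deletions were set against the same 2 control libraries, this sharing is not independent.

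**Figure D1:**
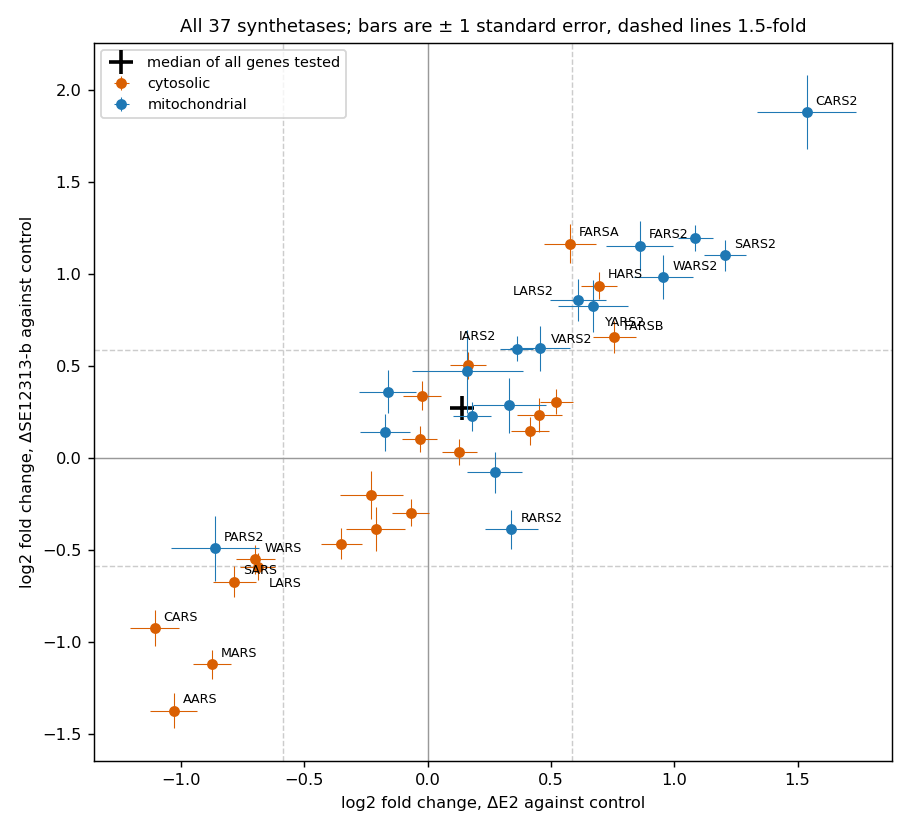
Log2 fold change against control of each synthetase in ΔE2 (x axis) and ΔSE12313-b (y axis), with bars of 1 standard error and the cytosolic and mitochondrial members in 2 colours. AARS, CARS and MARS lie at the lower left and CARS2 at the upper right, and the cross marks the median of all genes tested (0.14 and 0.27).

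Over all genes tested, the log2 fold changes had medians of 0.14 (ΔE2) and 0.27 (ΔSE12313-b). Over the cytosolic members it was -0.05 and -0.09, and over the mitochondrial members 0.36 and 0.59, so that relative to all genes the first class lay lower and the second higher in both deletions. With each library centred on its median ratio to the mean library, the class medians kept their signs, at -0.21 and -0.37 for the cytosolic and 0.20 and 0.30 for the mitochondrial members. Centring moved the balance of calls in ΔSE12313-b to 9 cytosolic members lower and 2 higher, and to 2 mitochondrial members lower and 5 higher. In ΔE2 it gave 6 and 1 cytosolic and 1 and 5 mitochondrial calls. Over all genes, centring changed 1945 lower and 3108 higher calls in ΔE2 to 2531 and 2286, and 1678 and 4124 in ΔSE12313-b to 2686 and 2407.

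With a 2-fold limit, 2 cytosolic members fell in ΔE2 (AARS, CARS), where 8.36% of all genes fell and 11.2% rose, and 2 in ΔSE12313-b (AARS, MARS), against 7.83% and 14.7%. FARSA rose in ΔSE12313-b past this limit. Of the mitochondrial members 3 rose past it in ΔE2 and 4 in ΔSE12313-b, CARS2 and SARS2 among them in both deletions and FARS2 in ΔSE12313-b. With the adjusted p alone, 7 cytosolic members were lower and 6 higher in ΔE2 (19.4% and 34.7% of all genes) and 9 were lower and 6 higher in ΔSE12313-b (16.4% and 43% of all genes). The mitochondrial counts were then 1 lower and 10 higher in ΔE2, and 2 lower and 11 higher in ΔSE12313-b.

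AARS, the alanyl-tRNA synthetase, had the highest control level of the family and the largest fall in ΔSE12313-b. Its FPKM was 125 and 124 in the control, 55.3, 67.5 and 60.2 in ΔE2 and 50.2, 44.8 and 49.0 in ΔSE12313-b. All 6 clones lay below both controls, and those of ΔSE12313-b below those of ΔE2. Its log2 fold changes were -1.03 ± 0.10 (SE) (ΔE2) and -1.37 ± 0.10 (ΔSE12313-b), which is 2.04-fold and 2.59-fold lower (limma adjusted p = 8.1e-05 and 1.5e-05). The gene lies on the minus strand at chr16:70286297-70323412 of GRCh37, on the arm of both deletions. Over 248 protein-coding genes of 16q the median log2 fold change, relative to that of all protein-coding genes, was -0.03 in ΔE2 and -0.31 in ΔSE12313-b. KARS, the lysyl-tRNA synthetase and the other member on 16q, had log2 fold changes of 0.45 and 0.23.

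CARS charges the cysteine tRNA of the cytosol, and its transcript is at chr11:3022152-3078681 on the minus strand. It had an FPKM of 45.9 and 43.2 in the control, 18.2, 21.9 and 21.98 in ΔE2 and 22.5, 23.5 and 24.4 in ΔSE12313-b. The clones of both deletions stood close together, well below the controls. Its log2 fold changes were -1.11 ± 0.10 (ΔE2) and -0.92 ± 0.10 (ΔSE12313-b) (limma adjusted p = 6.7e-05 and 0.00013).

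MARS loads methionine, including that of the initiator tRNA, and belongs to the synthetase complex. Its FPKM was 101 and 103 in the control, 52.1, 58.2 and 57.0 in ΔE2 and 49.1, 47.8 and 44.1 in ΔSE12313-b. The 3 groups did not overlap. It fell by 0.88 ± 0.08 on the log2 scale in ΔE2 and by 1.12 ± 0.08 in ΔSE12313-b (limma adjusted p = 6.7e-05 and 1.5e-05). The end of MARS overlaps that of DDIT3, a stress response gene on the opposite strand, by 68 of the 2892 bases of its transcript at most. DDIT3 fell by 1.30 and 2.18 on the log2 scale. A listed transcript of ARHGAP9, also on the opposite strand, overlaps the span of MARS. The paper names a directional kit for its libraries, but whether the table's values were counted by strand is not stated. The part of either gene in the MARS values was not tested.

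LARS, SARS and WARS, for leucine, serine and tryptophan, fell less. SARS went from a mean of 78.2 ± 0.51 (SD, n = 2) to 45.4 ± 2.27 (n = 3) FPKM in ΔE2 and 49.2 ± 4.30 (n = 3) in ΔSE12313-b. LARS was 1.61-fold and 1.51-fold lower, close to the limit in ΔSE12313-b. WARS was 1.62-fold lower in ΔE2, and 1.47-fold lower in ΔSE12313-b with a limma adjusted p of 0.00059, so that it passed the p but not the fold there. Without ΔSE12313-b clone 3, LARS was under the limit in ΔSE12313-b (-0.56) and WARS was past it (-0.60). GARS, the glycyl-tRNA synthetase, had log2 fold changes of -0.35 and -0.47 and passed the adjusted p in both deletions (0.0085 and 0.0018) below the fold limit. Centred, the members that passed both limits as lower in ΔSE12313-b also included WARS (-0.84), GARS (-0.75), YARS (-0.67) and TARS (-0.59).

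**Figure D2:**
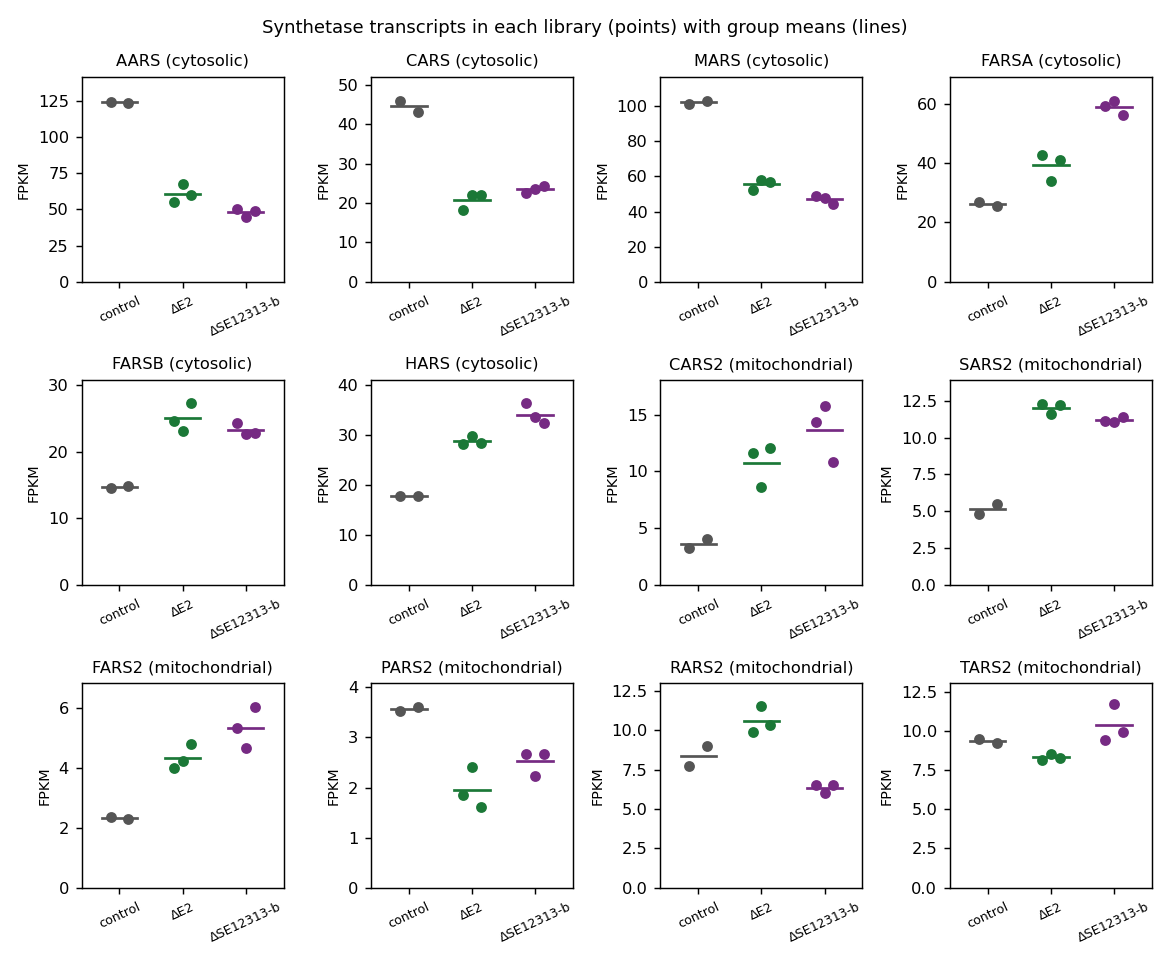
FPKM of 12 synthetases in each of the 8 libraries (points, y axis from 0) with the mean of each group (lines) for control, ΔE2 and ΔSE12313-b on the x axis. All 6 clones lie below both controls for AARS, CARS, MARS and PARS2, above them for FARSA, FARSB, HARS, CARS2, SARS2 and FARS2, and on opposite sides by deletion for RARS2, while the ΔSE12313-b clones overlap the controls for TARS2.

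The cytosolic members that rose were both subunits of the phenylalanyl-tRNA synthetase and the histidyl-tRNA synthetase. FARSA, the catalytic subunit, had an FPKM of 26.9 and 25.5 in the control, 42.9, 33.9 and 41.2 in ΔE2 and 59.2, 60.9 and 56.1 in ΔSE12313-b. The 3 groups were separate, with the ΔE2 clones between the others. The log2 fold change was 0.58 ± 0.11 in ΔE2, just under the 1.5-fold limit (limma adjusted p = 0.0025), and 1.16 ± 0.11 in ΔSE12313-b (limma adjusted p = 5.7e-05). Without ΔE2 clone 2, the lowest of its group, the ΔE2 value was 0.68 and passed the limit, as it did without control 1, at 0.62.

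FARSB, the other subunit of the same enzyme, had an FPKM of 14.5 and 14.9 in the control, 24.6, 23.0 and 27.3 in ΔE2 and 24.3, 22.7 and 22.7 in ΔSE12313-b. Its log2 fold change was 0.76 ± 0.09 and 0.66 ± 0.09 (limma adjusted p = 0.00024 and 0.0004). Between the deletions FARSB differed by 0.10 ± 0.08 (limma adjusted p = 0.38), whereas FARSA was lower in ΔE2. HARS had an FPKM of 17.8 and 17.6 in the control, 28.2, 29.7 and 28.3 in ΔE2 and 36.2, 33.4 and 32.3 in ΔSE12313-b, with log2 fold changes of 0.69 ± 0.07 and 0.94 ± 0.07 (limma adjusted p = 0.00015 and 2.6e-05). The spans of HARS and HARS2, which lie on opposite strands, share 302 bases at their starts, and HARS2 had log2 fold changes of 0.18 and 0.23. Centred, HARS in ΔE2 and FARSB in ΔSE12313-b remained higher but were under the 1.5-fold limit, at 0.54 and 0.37.

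In neither deletion were 11 cytosolic members called. Among them RARS, for arginine, had log2 fold changes of 0.52 and 0.31, and DARS, for aspartate, 0.42 and 0.15. NARS, for asparagine, and EPRS, the fused glutamyl-prolyl enzyme, had changes between -0.03 and 0.13, with clones of ΔSE12313-b that overlapped the controls. YARS, for tyrosine, had -0.21 and -0.39, and IARS, for isoleucine, -0.23 and -0.20. VARS, for valine, had 0.16 in ΔE2 and 0.50 in ΔSE12313-b, but this gene is listed 7 times in the build, on alternate copies of its region, and VARS2 6 times, so that their reads may have been split.

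The cytosolic members were further grouped by structure, by complex and by a list of 12 known ATF4 targets. On the ATF4 list 6 members fell in ΔE2 and 5 in ΔSE12313-b (14.1% and 12.2% of all genes tested). Of the list 0 rose (22.5% and 29.9% of all genes), and the median log2 fold change was -0.52 and -0.51. Of the 8 cytosolic members outside it, 0 fell, 2 rose in ΔE2 and 3 in ΔSE12313-b, with medians of 0.49 and 0.42. Centred, the medians of the listed members were -0.68 and -0.80 and those of the others 0.33 and 0.13. The summed level of the 12 listed members was 838 and 839 FPKM in the control, 563 to 608 in ΔE2 and 538 to 595 in ΔSE12313-b, whereas that of the other 8 was 221 and 219.8, then 287 to 312, and then 305 to 326. The sums of the listed and of the other members thus moved in opposite directions. The list was chosen with earlier results of these data known, so that this split is not a test of ATF4. The part of ATF4 in these changes was not tested. The promoter element described above was found in 3 of the 12 and in 0 of the 8.

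Of the 8 synthetases of the complex, LARS and MARS fell in both deletions and 0 rose, with medians of 0.05 and 0.09 that turned to -0.10 and -0.20 in centred libraries. Of its 3 scaffold proteins, EEF1E1 rose in both (log2 fold change 0.74 and 0.80). AIMP2 had 0.43 and 0.39, and AIMP1 had 0.00 in ΔE2 and -0.51 in ΔSE12313-b. By structural class of the enzyme, 4 of 10 class I members fell in ΔE2 and 3 in ΔSE12313-b and 0 rose. Of 10 class II members 2 fell in each and 2 and 3 rose. Of all genes tested, 14.1% fell and 22.5% rose in ΔE2, and 12.2% and 29.9% in ΔSE12313-b, and the class II counts lay near these shares.

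CARS2, the mitochondrial cysteinyl-tRNA synthetase, rose most in the family. Its FPKM was 3.25 and 3.99 in the control, 11.6, 8.62 and 12.1 in ΔE2 and 14.3, 15.8 and 10.9 in ΔSE12313-b. The lowest clone lay well above the higher control, and the spread between clones was wide. The log2 fold change was 1.54 ± 0.20 and 1.88 ± 0.20 (limma adjusted p = 0.00045 and 0.00013), or 2.90-fold and 3.67-fold higher. The kept transcript of CARS2, like those of IARS and EARS2, is one that RefSeq lists as non-coding, and 78 to 442 reads stood behind each value.

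SARS2, for mitochondrial serine, had an FPKM of 4.82 and 5.52 in the control, 12.3, 11.6 and 12.2 in ΔE2 and 11.12, 11.05 and 11.41 in ΔSE12313-b. The 6 clones were close together and far from the controls. Its log2 fold change was 1.21 ± 0.08 and 1.10 ± 0.08 (limma adjusted p = 1.9e-05 and 2.4e-05). The start of SARS2 overlaps another listed transcript of MRPS12, a gene for a mitochondrial ribosomal protein on the opposite strand, by 189 bases. MRPS12 rose by 0.66 and 1.20 on the log2 scale, and its part in the SARS2 values was not tested.

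FARS2, the single-chain mitochondrial enzyme for phenylalanine, had an FPKM of 2.36 and 2.31 in the control, 3.98, 4.22 and 4.80 in ΔE2 and 5.33, 4.67 and 6.04 in ΔSE12313-b. Its log2 fold change was 0.86 ± 0.14 and 1.15 ± 0.14 (limma adjusted p = 0.0012 and 0.00021). Every clone lay above both controls, on 52 to 179 reads per library.

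WARS2 rose by 0.96 and 0.98 on the log2 scale. LARS2 rose by 0.61 and 0.86 and YARS2 by 0.67 and 0.83, and once centred both were under the 1.5-fold limit in ΔE2 (0.45 and 0.51) and in ΔSE12313-b (0.57 and 0.54). Without ΔE2 clone 3 both were also under it in ΔE2, at 0.55 and 0.56, and without control 1 LARS2 was at 0.46. IARS2 and VARS2 each rose by 0.59 in ΔSE12313-b, at the limit, and had 0.36 and 0.46 in ΔE2. Centred, they were at 0.30 and 0.31 in ΔSE12313-b, where the limma adjusted p of VARS2 was 0.067. IARS2 was under the limit without ΔSE12313-b clone 1 (0.57) or control 2 (0.58), and VARS2 without ΔSE12313-b clone 2 (0.50) or control 1 (0.58).

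PARS2, the mitochondrial prolyl-tRNA synthetase, was the member of its class called lower in the uncentred values, and this was in ΔE2. Its FPKM was 3.54 and 3.62 in the control, 1.85, 2.40 and 1.60 in ΔE2 and 2.66, 2.24 and 2.67 in ΔSE12313-b, all clones below both controls. Its log2 fold changes were -0.86 ± 0.18 (ΔE2) and -0.49 ± 0.18 (ΔSE12313-b), where it passed the p but not the fold (limma adjusted p = 0.0045 and 0.044), and centred it passed both in ΔSE12313-b, at -0.78. TARS2, for mitochondrial threonine, had 9.51 and 9.26 FPKM in the control, 8.15, 8.56 and 8.26 in ΔE2 and 9.45, 11.7 and 9.97 in ΔSE12313-b. Its log2 fold changes of -0.17 ± 0.10 and 0.14 ± 0.10 did not pass (limma adjusted p = 0.19 and 0.27), and the ΔSE12313-b clones overlapped the controls. AARS2, EARS2, HARS2, MARS2, NARS2, RARS2 and TARS2 were called in neither deletion in the uncentred values. Of these, RARS2 passed the p but not the fold as lower in ΔSE12313-b (-0.39, limma adjusted p = 0.014). Centred, it passed both there, at -0.68.

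In ΔE2, 13 mitochondrial members had all 3 clones above both controls and 3 had them below, and in ΔSE12313-b the counts were 13 and 2. Over all genes tested, 44.8% lay wholly above and 28.7% wholly below in ΔE2, and 51.5% and 23.8% in ΔSE12313-b. Of the cytosolic members, 8 lay above and 10 below in either deletion.

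Each cytosolic enzyme was then set beside the mitochondrial enzyme for the same amino acid, in 18 pairs in which EPRS and FARS2 each appear more than once. In 13 of 18 pairs the log2 fold change of the mitochondrial member was above that of the cytosolic one, in each deletion. The median difference was 0.45 (ΔE2) and 0.65 (ΔSE12313-b). The difference was largest for cysteine, at 2.64 and 2.80, where CARS fell and CARS2 rose. Serine showed the same arrangement (SARS fell and SARS2 rose), and so did leucine, in both deletions, and tryptophan in ΔE2. In ΔE2 the difference was most negative for proline, with EPRS and PARS2, at -0.99, and in ΔSE12313-b for histidine, with HARS and HARS2, at -0.71, where arginine had -0.69 and proline -0.52. These differences describe the fitted values, and they were not tested.

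**Figure D3:**
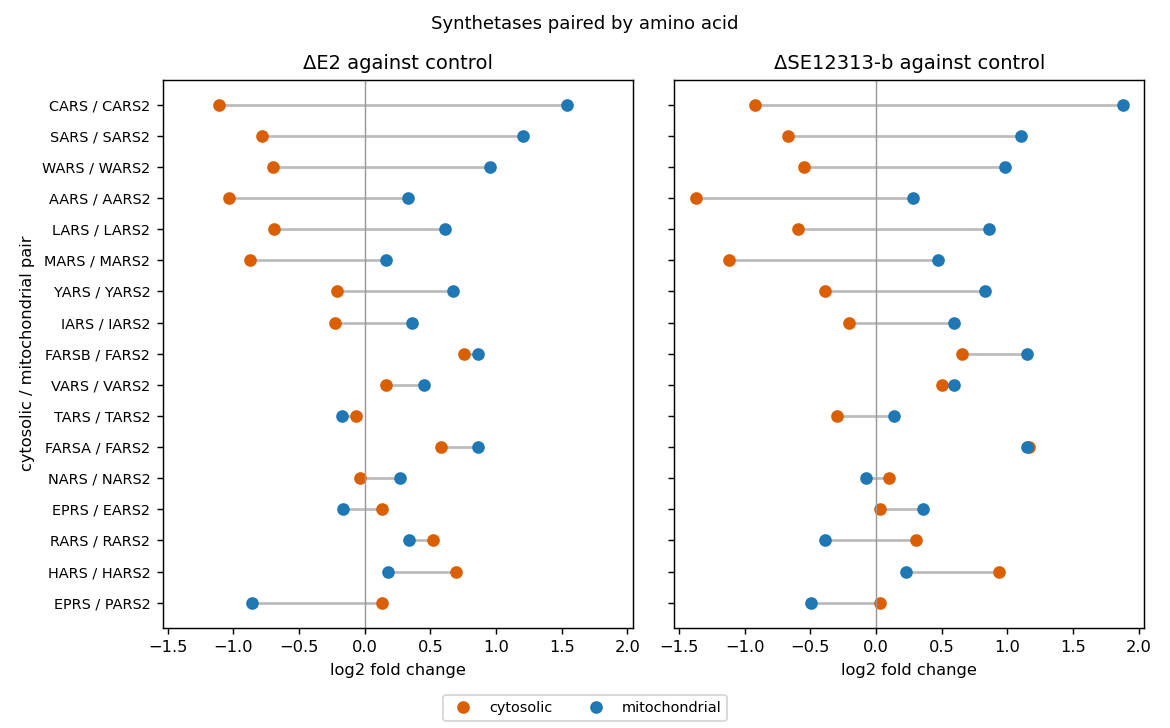
Log2 fold change against control (x axis) of the cytosolic and the mitochondrial synthetase for the same amino acid, joined by a grey line (y axis: pairs), for ΔE2 and ΔSE12313-b. Of the 17 pairs drawn, the mitochondrial point lies to the right in 12 in each panel, and the longest line is that of CARS and CARS2.

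The deletions were also set against each other. With the same limits 1 member was called, RARS2, where 11.8% of all genes were called in either direction. RARS2, for mitochondrial arginine, had an FPKM of 7.70 and 9.03 in the control, 9.92, 11.6 and 10.3 in ΔE2 and 6.51, 6.002 and 6.53 in ΔSE12313-b. The clones of ΔE2 lay above both controls and those of ΔSE12313-b below both. ΔE2 was 0.73 ± 0.10 higher on the log2 scale (limma adjusted p = 0.0019), with 0.34 and -0.39 against the control (limma adjusted p = 0.028 and 0.014). The gene lies on 6q (chr6:88223653-88299750). The median of 256 protein-coding genes of that arm, relative to all protein-coding genes, was 0.07 for ΔE2 and -0.53 for ΔSE12313-b, and the part of this shift in the RARS2 values was not tested.

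FARSA was lower in ΔE2 by 0.58 on the log2 scale (limma adjusted p = 0.0041), at the 1.5-fold limit, and EARS2, for mitochondrial glutamate, by 0.52 (limma adjusted p = 0.0096). EARS2 lies on 16p, where the arm's relative median was -0.43 in ΔE2 and 0.02 in ΔSE12313-b. FARSA lies on 19p, with -0.10 and -0.26. By the adjusted p alone 14 members differed, against 26% of all genes, AARS and MARS among them as higher in ΔE2 by 0.34 and 0.25. With a 2-fold limit 0 of the 37 were called, against 4.23% of all genes. Of the 22 members that passed the adjusted p against the control in both deletions, 1 had opposite signs, RARS2.

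Genes around tRNA charging were taken from lists of known function. Centred values were not summarised for these lists, so that their values are to be read beside the medians of all genes given above. The shares of all genes were 14.1% lower and 22.5% higher in ΔE2, and 12.2% and 29.9% in ΔSE12313-b. Of 26 tested genes of the integrated stress response, 18 fell and 1 rose in ΔE2, and 20 fell and 2 rose in ΔSE12313-b, with a median log2 fold change of -1.21 in both. ATF4 itself was at 243 and 247 FPKM in the control and at 78.2 to 98.1 in the 6 clones, with log2 fold changes of -1.42 ± 0.10 and -1.56 ± 0.10. ASNS, the asparagine synthetase, had -1.95 and -2.66, CHAC1, which degrades glutathione, -2.94 and -3.08, and TRIB3, a pseudokinase that feeds back on ATF4, -2.81 and -2.25. ATF5, a related factor, rose by 0.81 and 1.04, and PSPH, of serine synthesis, by 0.66 in ΔSE12313-b. Of 7 genes of the upstream arm, EIF2S1 (the eIF2α subunit) rose in both deletions, and EIF2AK4, which encodes GCN2, rose in ΔSE12313-b by 0.65, and EIF2AK3, which encodes the kinase PERK, rose there too.

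XPOT, the exporter of tRNA from the nucleus, was 62.3 and 66.95 FPKM in the control, 23.6 to 25.5 in ΔE2 and 29.96 to 39.2 in ΔSE12313-b, and fell by 1.39 and 0.85 on the log2 scale. Of 12 genes of tRNA maturation and export it was the one that fell, while 5 rose in both deletions: ELAC2, the 3′ end nuclease, RTCB, the tRNA ligase, and POP1, RPP30 and RPP40, subunits of RNase P. POP1 had the largest rise, at 2.30 and 2.24. SEPSECS, which completes selenocysteinyl-tRNA, fell by 1.07 and 1.28 and was the one of 11 other charging factors that fell. Of the transamidation route that stands in for a mitochondrial glutaminyl-tRNA synthetase, GATB rose by 0.60 in ΔE2, and its partner QRSL1 had 0.26 and -0.37.

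On the mitochondrial side, 26 of 77 ribosomal protein genes rose in ΔE2 and 40 in ΔSE12313-b and 0 fell, with medians of 0.41 and 0.62, beside 0.36 and 0.59 for the synthetases. Of 11 mitochondrial translation factors 3 and 4 rose, shares near those of all genes, among them TSFM, an elongation factor, in both (0.81 and 0.93). TUFM, its partner, had 0.21 in ΔE2 and rose by 0.90 in ΔSE12313-b. Of 6 cytosolic elongation factor genes, EEF2 fell in both (-0.60 and -0.72) and EEF1A1 fell in ΔSE12313-b by 0.92. EEF1A2 was called higher there, from 0.118 and 0.083 FPKM in the control. It reached the minimum level for testing only through the ΔSE12313-b clones (0.56, 0.507 and 1.576), so that no rise is read from it. Of 8 tested genes induced by interferon-gamma, a known inducer of WARS, 2 fell in ΔE2, and 1 fell and 1 rose in ΔSE12313-b.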

How the data were processed

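RNA from 8 EA.hy926 libraries (2 control, 3 ΔE2, 3 ΔSE12313-b) was analysed, grouped by the genotype in the labels. The submitters' processing notes name Trim Galore 0.4.4, STAR 2.5.4b, featureCounts and the build GRCh37. The authors deposited 1 table of FPKM for 65572 RefSeq transcripts. The tool that made it, the RefSeq release and the handling of strands are not given in the sources used here. The paper's own calls rest on edgeR with counts that are not in this table, so limma was used here on the FPKM, with the fold and p thresholds given in its methods. The gene counts in the paper's results use a 2-fold limit instead, so that they are not comparable with the 1.5-fold calls here.

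Each symbol was represented by its transcript of highest mean FPKM. The test took genes that reached an FPKM of 0.5 in 2 or more libraries and used limma 3.58.1 in R 4.3.3 (trend method, two-sided, 3 groups in 1 model, log2(FPKM + 0.1)), and p values were adjusted by Benjamini-Hochberg over all 13789 genes. Fold changes on this scale understate changes of low genes. The values gave whole reads for 100% of those checked, within 0.1 read, and these reads were used for depth and for 1 alternative. The fits were run on simulated reads with the same spread in all groups, unlike these libraries, so that this run does not check the p values. The chi-square per degree of freedom was 1.19 between the control libraries, 3.98 to 20.7 among the clones of ΔE2 and 8.34 to 22.8 among those of ΔSE12313-b.

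Values per library are given for members that changed at least 2-fold in either deletion, for the 3 with the largest mean rise and the 3 with the largest mean fall of each class, and for members called between the deletions, except 1 member that, like 1 marker gene, is counted but not reported here. FARSA values without single libraries, and genes of the lists other than the most changed, were named after their values were seen. The members and all lists were chosen with earlier results of these data known. The alternatives were pseudocounts of 0.01 and 1, no minimum FPKM, centred libraries, a replicate block, each library left out, a 2-fold limit, the adjusted p alone, the longest transcript, and voom on the recovered reads. Promoters were read from GRCh37 with the coordinates of the table.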

Additional observations from a re-analysis of the deposited data

Results flagged for a closer look

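RARS2 was picked out because the effects of both deletions differed from each other in limma's contrast between them, by 0.73 ± 0.10 on the log2 scale (adjusted p = 0.0019). Its transcript was higher in ΔE2 (10.6 ± 0.85 FPKM, SD, n = 3) and lower in ΔSE12313-b (6.35 ± 0.30, n = 3) than in the control (8.36 ± 0.94, n = 2). All 3 clones of each deletion lay on opposite sides of both controls. With each library centred the changes against the control were 0.18 and -0.68, and the contrast was 0.86. The part of the shift of its chromosome arm, 6q, was not tested.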

How the results depend on the processing

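The count of calls for the cytosolic members that fell, those that rose, the mitochondrial members that fell and those that rose was 6, 2, 1 and 7 in ΔE2 and 5, 3, 0 and 9 in ΔSE12313-b. A 2-fold limit gave 2, 0, 0 and 3 in ΔE2 and 2, 1, 0 and 4 in ΔSE12313-b. The adjusted p alone gave 7, 6, 1 and 10, and 9, 6, 2 and 11. Centred libraries and voom on the recovered reads, which scales by the median of ratios, both gave 6, 1, 1 and 5 in ΔE2 and 9, 2, 2 and 5 in ΔSE12313-b. Between the deletions 1 member was called, 0 with a 2-fold limit, 14 with the adjusted p alone, 2 with a pseudocount of 0.01 and 1 to 3 with each library left out in turn (2 without ΔE2 clone 1 or 3, and 3 without ΔSE12313-b clone 3). Signs turned only in members that were not called. Centred, EPRS was at -0.029 in ΔE2. Centred values in ΔSE12313-b were -0.0036 for AARS2, -0.14 for DARS, -0.26 for EPRS, -0.062 for HARS2, -0.054 for KARS, -0.19 for NARS and -0.15 for TARS2. With voom they were -0.039 for EPRS, -0.0070 for MARS2 and -0.0028 for VARS in ΔE2, and -0.016 for AARS2, -0.16 for DARS, -0.27 for EPRS, -0.077 for HARS2, -0.070 for KARS, -0.20 for NARS and -0.17 for TARS2 in ΔSE12313-b. With each library left out in turn, QARS ranged from -0.066 to 0.017 in ΔE2, and in ΔSE12313-b EPRS ranged from -0.012 to 0.081 and NARS2 from -0.17 to 0.015. Over all genes tested, centring lowers each change by about the median shift of the deletion, 0.14 and 0.27. For the other differences the cause was not tested. The replicate numbers share only a number: deviations of same-numbered clones correlated at 0.11, -0.08 and -0.07. With a replicate block 16 members were called in ΔE2, as without it, and 17 in ΔSE12313-b, where LARS was lost and WARS gained. The mitochondrial members with few reads (52 to 179 for FARS2) carry more counting noise. The standard error did not follow reads alone: in ΔE2 against control it was 0.14 for FARS2 and 0.20 for CARS2, on 78 to 442 reads.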
